A study of Mus musculus with 8 samples.

Results

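The 29 genes described here carry cholesterol through the liver cell: the enzymes that build it from acetyl-CoA, the proteins that move it between compartments, the transporters that export it, the enzymes that esterify it, and a lipoprotein receptor. They were taken as every probe whose platform gene symbol was on that list. Probes of 24 of the 29 symbols were found, 30 probes in all, among the 16593 genes named on the array. The 5 others, Acat2, Mvk, Fdft1, Npc1 and Soat2, are not analysed here. Ggps1 (2 probes) and Abca1 (1 probe) were detected on 0 of 8 arrays, so 22 of the cholesterol genes, by 27 probes, were tested, of 7960 genes tested in all.

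Liver RNA came from 4 male mice heterozygous for Jag1K295*/+, a nonsense allele of the Notch ligand gene Jag1, and from 4 male wild-type mice, 1 bead array per mouse. All 8 animals were of the C3HeB/FeJ strain and 21 weeks old, and the labels name no driver that would limit the allele to a cell type. The series presents the heterozygotes as a model of Alagille syndrome, a disorder with few bile ducts, in which cholesterol handling is of interest because bile is the main exit route of sterols. The titles shorten the mutant group to "hom", but its genotype is labelled heterozygous and the design text also calls it heterozygous, so it was taken as such. The Jag1 probe was detected on 0 of 8 arrays (detection p-values 0.301 to 0.895), so it did not check the labels.

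Mean array signals ran from 422 to 488, and 11022 to 11873 of 25697 probes were detected per array. Heterozygous replicate 4 stood apart on the first principal component (24.3, with the other arrays between -12.3 and 6.90). The differences of Pmvk, Fdps, Idi1, Lss, Nsdhl, Dhcr7, Sc5d, Sqle, Ebp, Lcat and Tmem97 are therefore also given without it. Of the hepatocyte markers 6 of 10 were tested, with a mean log2 signal of 13.5 to 13.6 on heterozygous and 13.4 to 13.5 on wild-type arrays. For Kupffer cells and macrophages 7 of 10 markers were tested (6.70 to 7.15 on heterozygous and 6.95 to 7.16 on wild-type arrays), and their median log2 fold change was -0.22 with 0 of 7 past the threshold. The erythroid markers had a median of -0.43 (3 of 5 tested, 0 past the threshold), endothelial markers -0.10 (8 of 8 tested) and stellate and fibroblast markers -0.13 (6 of 8 tested). Of the erythroid genes, Hba-a1 was at -0.45 and Hbb-b2 at -0.43, while Alas2 was at -0.03. At an unadjusted limma p under 0.05 were 2 of 3 erythroid and 1 of 7 Kupffer cell and macrophage markers, against 9.8% of all tested genes. The count was 0 for hepatocyte, endothelial, and stellate and fibroblast markers. Bile duct cells were represented by 1 of 9 markers, Krt7 at -0.03, and lymphocytes by 0 of 6. The part of these cell types in the results was not tested, and in whole liver fewer cells of a type and less RNA per cell cannot be told apart.

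Cells make cholesterol by condensing acetyl-CoA units into mevalonate, turning mevalonate into isoprenoids, joining these into squalene, closing squalene to lanosterol, and then trimming lanosterol to cholesterol. When sterol is scarce in the endoplasmic reticulum, the transcription factor SREBP2 is released and raises most of these enzymes together. It acts through sterol regulatory elements, with NF-Y bound at nearby CCAAT boxes. Surplus sterol instead activates LXR, which raises the exporters Abca1, Abcg5 and Abcg8, and the liver disposes of cholesterol into bile through the Abcg5 and Abcg8 pair or as bile acids.

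To show where the searched letters occur, promoter windows from RefSeq (GRCm38.p6, 250 bases before to 50 after the gene's start) are printed. They run 5′ to 3′ on the gene's strand, for the brightest gene of each role, where that gene has a window, and for Nsdhl. Sqle and Scarb1, the brightest of their roles, have none. Nsdhl was added after its values were seen. Capitals mark CCAAT on either strand (ATTGG where it lies on the other strand) and, in Hmgcs1, TCACCCCAC, a match to the sterol regulatory element letters TCACNCCAC. The windows lie at chr13:119690101-119690400 (plus strand) for Hmgcs1, chrX:8193463-8193762 (minus strand) for Ebp, chrX:72918271-72918570 (plus strand) for Nsdhl, chr11:78550686-78550985 (minus strand) for Tmem97, chr17:84682962-84683261 (minus strand) for Abcg5 and chr8:105943353-105943652 (minus strand) for Lcat.
Hmgcs1: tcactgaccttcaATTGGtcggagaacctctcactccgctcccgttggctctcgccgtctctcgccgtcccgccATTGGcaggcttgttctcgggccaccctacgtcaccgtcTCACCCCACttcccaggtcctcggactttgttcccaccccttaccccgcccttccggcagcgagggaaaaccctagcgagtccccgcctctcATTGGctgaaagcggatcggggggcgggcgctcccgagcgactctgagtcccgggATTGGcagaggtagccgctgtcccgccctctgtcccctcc
Ebp: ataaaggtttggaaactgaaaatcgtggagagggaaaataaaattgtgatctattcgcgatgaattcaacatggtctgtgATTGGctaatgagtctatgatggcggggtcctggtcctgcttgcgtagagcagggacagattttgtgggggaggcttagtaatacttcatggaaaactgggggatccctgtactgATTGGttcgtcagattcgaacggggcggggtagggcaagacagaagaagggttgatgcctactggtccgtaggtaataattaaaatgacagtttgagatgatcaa
Nsdhl: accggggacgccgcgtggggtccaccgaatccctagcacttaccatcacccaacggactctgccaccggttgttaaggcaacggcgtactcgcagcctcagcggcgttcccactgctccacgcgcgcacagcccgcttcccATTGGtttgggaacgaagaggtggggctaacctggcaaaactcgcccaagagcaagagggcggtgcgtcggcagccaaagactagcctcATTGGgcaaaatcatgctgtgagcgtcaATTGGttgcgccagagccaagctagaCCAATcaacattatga
Tmem97: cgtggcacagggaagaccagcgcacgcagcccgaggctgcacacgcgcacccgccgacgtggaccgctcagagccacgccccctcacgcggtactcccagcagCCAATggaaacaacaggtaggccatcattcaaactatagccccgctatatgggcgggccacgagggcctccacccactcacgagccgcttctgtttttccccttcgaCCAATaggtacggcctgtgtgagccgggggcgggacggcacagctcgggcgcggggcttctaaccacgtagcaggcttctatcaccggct
Abcg5: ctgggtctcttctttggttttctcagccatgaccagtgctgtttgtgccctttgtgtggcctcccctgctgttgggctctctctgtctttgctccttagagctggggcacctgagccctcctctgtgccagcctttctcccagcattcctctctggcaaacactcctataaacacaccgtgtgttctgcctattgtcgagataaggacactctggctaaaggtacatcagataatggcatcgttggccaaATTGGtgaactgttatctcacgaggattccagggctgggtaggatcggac
Lcat: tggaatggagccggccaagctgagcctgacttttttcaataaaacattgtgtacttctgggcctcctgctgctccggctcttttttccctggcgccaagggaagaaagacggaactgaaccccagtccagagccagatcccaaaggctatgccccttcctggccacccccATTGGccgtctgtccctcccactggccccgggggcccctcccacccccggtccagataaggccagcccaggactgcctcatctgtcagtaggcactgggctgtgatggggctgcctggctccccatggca
Searched on both strands, CCAAT was present in the windows of 20 of the 22 cholesterol genes that have one, including 18 of 18 tested genes, against 41.1% of the 27025 genes in the table. The windows of Acat2 and Abca1 held none. Hmgcs1 has 4 CCAAT matches and 1 match to TCACNCCAC, which begins 137 bases before the start. That 9-letter motif was in 1 of 22 cholesterol genes, against 1.44% of all genes, and the canonical LXR element, a direct repeat, was in 0 of 22, against 0.0148%. These letters do not overlap each other in any printed window. The motif search is a description of letters and shows neither binding nor its absence. Abcg5 and Abcg8 stand head to head, with starts 110 bases apart, so their windows share 209 bases. The only CCAAT match of Abcg5 lies in these shared bases and is also counted for Abcg8.

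The cholesterol genes did not separate heterozygous from wild-type liver. Signals are log2 values after background correction and quantile normalization, each gene is represented by its brightest tested probe, and differences are heterozygous minus wild type. Of 22 genes 12 were above 0 and 10 below 0 (54.5% above, against 54.4% of all tested genes), with log2 fold changes from -0.34 to 0.24 and a median of 0.05, beside 0.01 over all tested genes. With limma's moderated test and Benjamini-Hochberg adjustment over 11412 probes, 0 of 22 passed the threshold of 0.05, where 0.00876% of all tested probes did, and the adjusted p-values lay between 0.457 and 0.945. At an unadjusted p under 0.05 the count was 0 of 22, against 11.2% of all tested probes and 9.8% of all tested genes. The smallest unadjusted limma p-values, 0.054 for Nsdhl and 0.055 for Tm7sf2, lay just above that limit. The groups overlapped for all 22 genes: 0 of 22 had every heterozygous array above, or every one below, all wild-type arrays, against 6.25% of probes and 5.79% of genes. Without heterozygous replicate 3 this last count was 3 of 22 (Fdps, Lss and Lcat), against 11.5% of probes and 10.8% of genes. Without wild-type replicate 4 it was also 3 of 22 (Npc2, Nsdhl and Tm7sf2), against 12.4% and 11.4%. It was 1 of 22 without heterozygous replicates 1 or 2 or wild-type replicates 1 or 2 in turn. The shares of genes were then 10.9%, 8.54%, 9.47% and 8.03%. Without heterozygous replicate 4 or wild-type replicate 3 the count was 0, against 8.22% and 8.72% of genes.

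The 95% intervals bound how large a change these arrays leave room for. Every one of the 22 intervals included 0. Among these intervals of the brightest probes the lowest bound was that of Nsdhl, -0.68 on the log2 scale or 0.625 times the wild-type signal. The highest was that of Tm7sf2, 0.49 or 1.40 times. Dimmer probes of Nsdhl had lower bounds of -0.76 and -0.77. The brightest probes of Ebp, Hmgcs1, Hsd17b7, Lcat and Sqle varied little between animals, and their intervals were narrow. Ebp's ran from 0.870 to 1.09 times the wild-type signal. The dimmer Sqle probe varied more (within-group SD 0.34), and its interval ran from -0.77 to 0.086 on the log2 scale. Each interval is for 1 gene and is not adjusted for the number of genes. The added offset compresses dim signals, so changes of the genes with the dimmest probes, Scarb1 and Idi1, are understated. A p-value that misses the threshold does not show that the groups are alike.

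**Figure D1:**
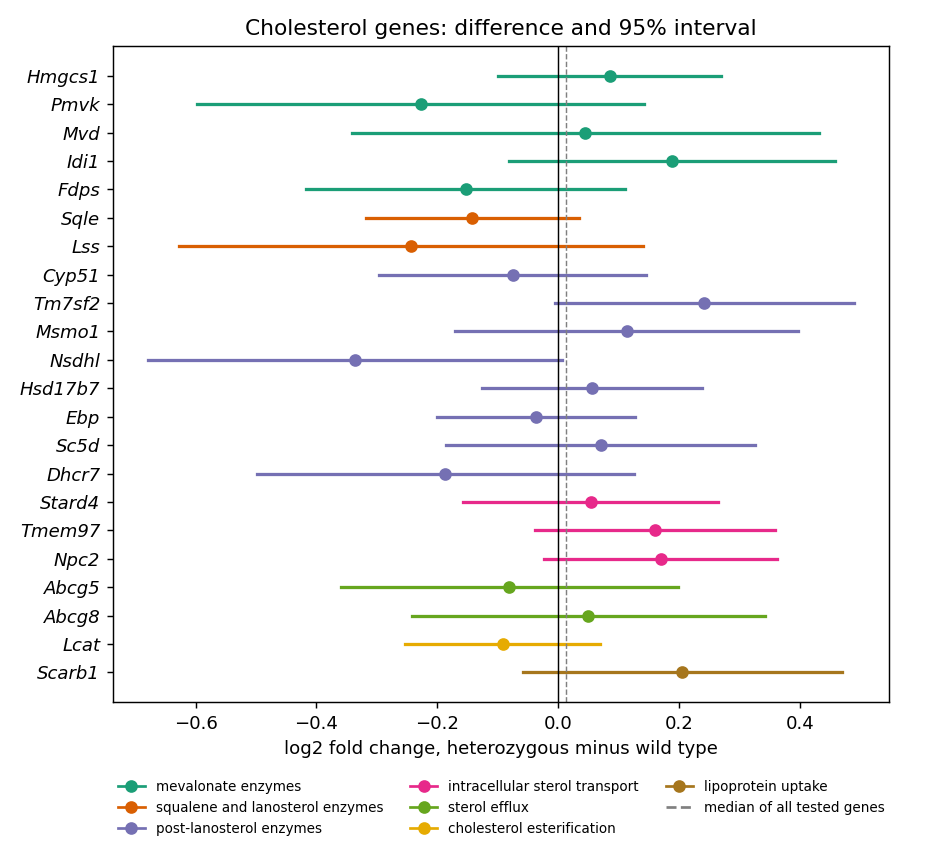
Log2 fold change, heterozygous minus wild type (x axis), for each of the 22 tested cholesterol genes in pathway order (y axis); points are limma estimates from 4 against 4 arrays and bars their 95% intervals. All bars cross 0, and the estimates run from -0.34 for Nsdhl to 0.24 for Tm7sf2.

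Of the 8 mevalonate enzymes 5 were tested, 3 above 0 and 2 below, with a median log2 fold change of 0.04. Hmgcs1 makes HMG-CoA, the substrate of the rate-limiting step. Its log2 signal was 12.95, 12.90, 13.08 and 13.07 in heterozygous replicates 1 to 4, against 12.79, 13.03, 12.94 and 12.90 in wild-type replicates 1 to 4. The groups overlapped, with the lowest value in wild-type replicate 1 and the highest in heterozygous replicate 3, and the log2 fold change was 0.09 ± 0.08 (SE; adjusted p by limma = 0.732). Pmvk, phosphomevalonate kinase, had 8.90, 9.22, 9.44 and 8.57 in heterozygous replicates 1 to 4, against 9.40, 9.34, 9.14 and 9.17 in wild-type replicates 1 to 4. Heterozygous replicates 3 and 4 were the highest and the lowest of the 8 arrays for Pmvk, and its log2 fold change of -0.23 ± 0.17 (SE; adjusted p by limma = 0.633) became -0.07 without heterozygous replicate 4 and -0.36 without heterozygous replicate 3. Fdps, which makes farnesyl diphosphate at the branch towards squalene, read 12.85, 12.88, 13.12 and 12.50 in heterozygous replicates 1 to 4, against 13.06, 12.96, 13.02 and 12.92 in wild-type replicates 1 to 4. The 4 wild-type values for Fdps lay within 0.14 log2 units, with heterozygous replicate 3 above them and heterozygous replicates 1, 2 and 4 below. For Fdps the log2 fold change was -0.15 ± 0.12 (SE; adjusted p by limma = 0.659), -0.04 without heterozygous replicate 4 and -0.25 without heterozygous replicate 3, when the Fdps groups did not overlap.

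Idi1 isomerises isopentenyl diphosphate, and its log2 signals were 6.996, 6.73, 6.94 and 7.12 in heterozygous replicates 1 to 4, against 6.56, 7.06, 6.69 and 6.72 in wild-type replicates 1 to 4. Here heterozygous replicate 4 was the highest of the 8 arrays, not the lowest, and wild-type replicate 2 lay among the heterozygous values. For Idi1 the difference was 0.19 ± 0.12 (SE; adjusted p by limma = 0.592), with a 95% interval from -0.081 to 0.46. It was 0.29 without wild-type replicate 2, when the Idi1 groups did not overlap, and 0.12 without wild-type replicate 1. Without heterozygous replicate 4 it was 0.13. Mvd, the decarboxylase that makes isopentenyl diphosphate, averaged 8.10 ± 0.34 in heterozygous and 8.05 ± 0.25 in wild-type liver (SD, n = 4 each) and had the widest within-group spread of the 22 representative probes. Its log2 fold change of 0.04 turned to -0.12 without heterozygous replicate 3 and to -0.06 without wild-type replicate 4. Ggps1, which makes geranylgeranyl diphosphate, gave raw signals of 108 to 122 on its 2 probes, not well above background (detection p-values 0.261 to 0.950).

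Both tested enzymes of the squalene to lanosterol stretch were below 0. Sqle, squalene epoxidase and a second point of flux control, had 10.81, 10.90, 10.84 and 10.78 in heterozygous replicates 1 to 4, against 10.84, 11.06, 11.06 and 10.94 in wild-type replicates 1 to 4. All 4 heterozygous values lay below wild-type replicates 2, 3 and 4, but not all below wild-type replicate 1. The log2 fold change was -0.14 ± 0.08 (SE; adjusted p by limma = 0.533), and a dimmer Sqle probe gave -0.34 ± 0.19 (SE; adjusted p = 0.537). Without heterozygous replicate 2 or without wild-type replicate 1 the groups of the brighter Sqle probe did not overlap. Lss, lanosterol synthase, read 9.09, 9.28, 9.78 and 8.86 in heterozygous replicates 1 to 4, against 9.63, 9.65, 9.36 and 9.35 in wild-type replicates 1 to 4. Heterozygous replicate 3 was the highest and replicate 4 the lowest of all 8 arrays. Lss had a log2 fold change of -0.24 ± 0.17 (SE; adjusted p by limma = 0.625), -0.11 without heterozygous replicate 4 and -0.42 without heterozygous replicate 3, when the groups did not overlap.

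All 8 post-lanosterol enzymes were tested, 4 above and 4 below 0, with a median of 0.01. Nsdhl, a C4 sterol dehydrogenase encoded on the X chromosome, had the largest difference of the cholesterol genes: 9.55, 9.29, 9.55 and 8.87 in heterozygous replicates 1 to 4, against 9.70, 9.83, 9.67 and 9.41 in wild-type replicates 1 to 4. Heterozygous replicates 1 and 3 overlapped wild-type replicate 4, and heterozygous replicate 4 lay 0.43 below the next lowest array. The log2 fold change was -0.34 ± 0.15 (SE; adjusted p by limma = 0.457; 95% interval -0.68 to 0.0066), -0.19 without heterozygous replicate 4 and -0.42 without wild-type replicate 4, when the groups did not overlap. Its 3 other probes gave -0.36, -0.36 and -0.17, all below 0. On 3 of the 4 Nsdhl probes heterozygous replicate 4 was the lowest array, but on the dimmest it read 7.82, within the range of the others.

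**Figure D2:**
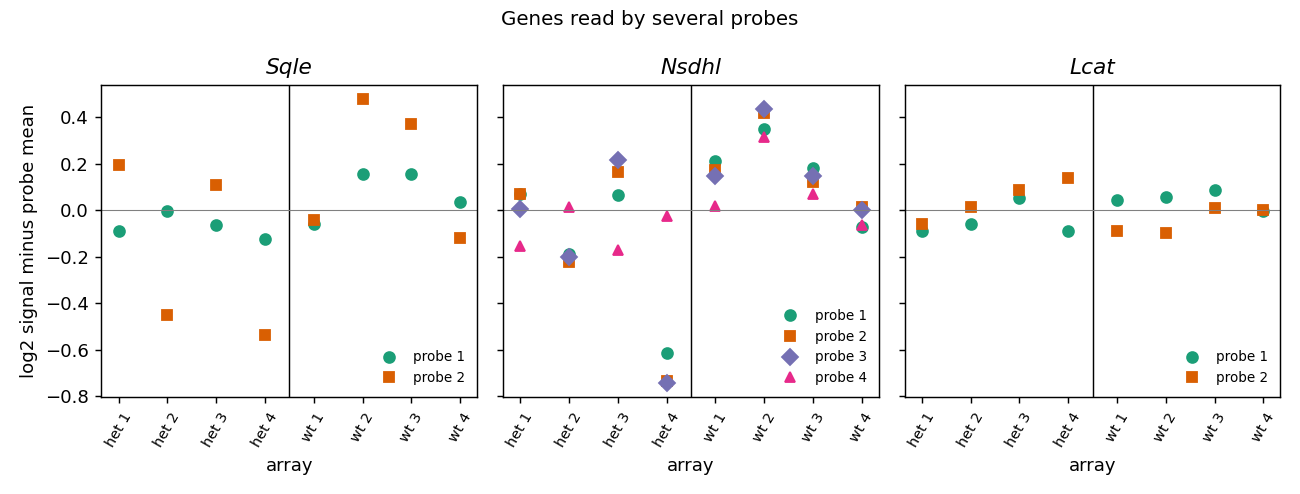
Log2 signal minus the probe's mean over 8 arrays (y axis) for each array (x axis), for the 3 genes with several tested probes; symbols are probes, numbered from the brightest, and the vertical line separates heterozygous (het) from wild-type (wt) arrays. Probes 1 to 3 of Nsdhl run together and drop on heterozygous replicate 4 while probe 4 does not, and the Lcat probes differ in sign.

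Tm7sf2, a sterol C14 reductase, was the gene with the largest positive difference. Its log2 signal was 9.37, 9.40, 9.82 and 9.42 in heterozygous replicates 1 to 4, against 9.29, 9.12, 9.26 and 9.38 in wild-type replicates 1 to 4. The value in heterozygous replicate 3 was well above the rest, and heterozygous replicate 1 lay just below wild-type replicate 4. Between groups the difference was 0.24 ± 0.11 (SE; adjusted p by limma = 0.457; 95% interval -0.006 to 0.49), and ran from 0.14 without heterozygous replicate 3 to 0.29 without heterozygous replicate 1, when the groups did not overlap. Dhcr7 catalyses the last reduction to cholesterol, and gave 10.74, 10.56, 10.73 and 10.14 in heterozygous replicates 1 to 4, against 10.85, 10.87, 10.71 and 10.50 in wild-type replicates 1 to 4. As for Nsdhl, heterozygous replicate 4 was the lowest array, and the Dhcr7 log2 fold change of -0.19 ± 0.14 (SE; adjusted p by limma = 0.647) became -0.05 without it and -0.26 without wild-type replicate 4.

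Ebp, the sterol isomerase after C4 demethylation, was among the steadiest genes, with 12.40, 12.36, 12.34 and 12.26 in heterozygous replicates 1 to 4, against 12.39, 12.43, 12.40 and 12.29 in wild-type replicates 1 to 4. Its 8 values spanned 0.17 log2 units and the log2 fold change was -0.04 ± 0.07 (SE; adjusted p by limma = 0.88). Of the remaining enzymes of this stretch, Cyp51, lanosterol 14-demethylase, was at -0.08, the C4 methyl oxidase Msmo1 at 0.11, the ketoreductase Hsd17b7 at 0.06 and the C5 desaturase Sc5d at 0.07. With each array left out in turn Cyp51 ran from -0.14 to -0.03, Msmo1 from 0.03 to 0.21 and Hsd17b7 from 0.01 to 0.09. Heterozygous replicate 4 was the highest array for Sc5d at 9.09, and without it the difference was -0.01.

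**Figure D3:**
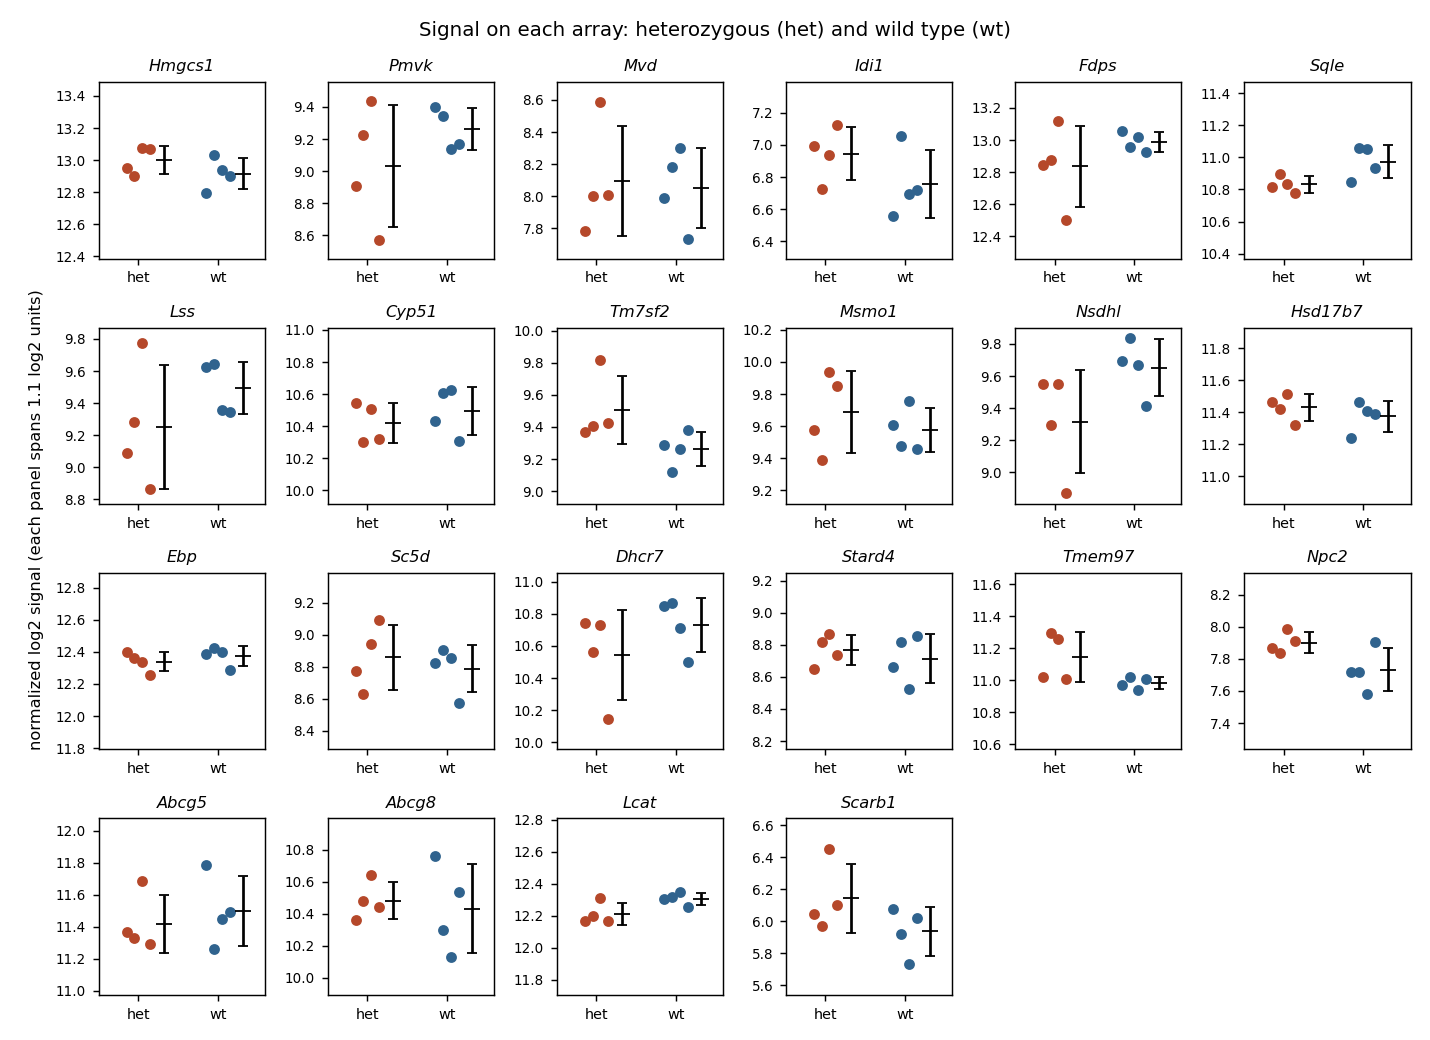
Normalized log2 signal (y axis) of every array for the 22 tested cholesterol genes; red points are heterozygous and blue points wild-type arrays in replicate order, black bars the mean ± SD of 4. Each panel spans the same 1.1 log2 units, and the groups overlap in every panel.

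The 3 tested genes of sterol transport inside the cell were all above 0, with 0 past the threshold and a median of 0.16. Tmem97, an endoplasmic reticulum protein known as the sigma-2 receptor that binds NPC1, had 11.02, 11.30, 11.26 and 11.01 in heterozygous replicates 1 to 4, against 10.97, 11.02, 10.94 and 11.01 in wild-type replicates 1 to 4. Heterozygous replicates 2 and 3 lay above all wild-type arrays, while replicates 1 and 4 lay at their upper edge. Between groups Tmem97 differed by 0.16 ± 0.09 (SE, adjusted p by limma = 0.534). Without heterozygous replicate 4 the Tmem97 difference rose to 0.21 (adjusted p by limma = 0.575). Npc2, which hands cholesterol to the lysosomal membrane, read 7.87, 7.84, 7.99 and 7.91 in heterozygous replicates 1 to 4, against 7.72, 7.72, 7.58 and 7.91 in wild-type replicates 1 to 4. All 4 heterozygous arrays lay above wild-type replicates 1 to 3, but only heterozygous replicates 3 and 4 were above wild-type replicate 4, and the log2 fold change was 0.17 ± 0.09 (SE; adjusted p by limma = 0.491). Without wild-type replicate 4 the Npc2 groups did not overlap. Stard4, a soluble sterol carrier, averaged 8.77 ± 0.10 in heterozygous and 8.71 ± 0.15 in wild-type liver (SD, n = 4 each), a difference of 0.05.

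Abcg5, a subunit of the heterodimer that exports sterols into bile, had 11.36, 11.33, 11.69 and 11.29 in heterozygous replicates 1 to 4, against 11.79, 11.26, 11.45 and 11.49 in wild-type replicates 1 to 4. Its partner Abcg8 had 10.36, 10.48, 10.64 and 10.44 in heterozygous replicates 1 to 4, against 10.76, 10.30, 10.13 and 10.54 in wild-type replicates 1 to 4. Wild-type replicate 1 was the highest of the 8 arrays for both subunits, and heterozygous replicate 3 the second highest. The log2 fold changes were -0.08 ± 0.13 for Abcg5 and 0.05 ± 0.13 for Abcg8 (SE; adjusted p by limma = 0.842 and 0.914), and each changed sign when a single array was left out. The probe of Abca1, the exporter that loads cholesterol onto apolipoprotein A-I, had raw signals of 116 to 128, not well above background (detection p-values 0.0739 to 0.637).

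Lcat is secreted by hepatocytes and esterifies cholesterol on circulating HDL. Its log2 signals were 12.17, 12.20, 12.31 and 12.17 in heterozygous replicates 1 to 4, against 12.30, 12.32, 12.35 and 12.25 in wild-type replicates 1 to 4, a narrow range in both groups. The brighter probe gave -0.09 ± 0.07 and the dimmer one 0.09 ± 0.08 (SE; adjusted p by limma = 0.663 and 0.699), so the Lcat probes disagreed in sign. Scarb1, the HDL receptor that takes up cholesteryl esters, was dim, with 6.05, 5.97, 6.45 and 6.10 in heterozygous replicates 1 to 4, against 6.08, 5.92, 5.73 and 6.02 in wild-type replicates 1 to 4. Heterozygous replicate 3 was the highest array, replicate 4 lay just above the wild-type values and the other 2 among them, for a log2 fold change of 0.21 ± 0.12 (SE; adjusted p by limma = 0.55), 0.10 without heterozygous replicate 3 and 0.26 without heterozygous replicate 2.

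For most of the cholesterol genes animals of 1 genotype differed more than the genotypes did: the log2 fold change was smaller than the within-group SD for 15 of 22 (68.2%, beside 69.6% of all tested genes). The median within-group SD was 0.18 for the 22 cholesterol genes, beside 0.15 for all tested genes, while their median absolute log2 fold change was 0.13, beside 0.09. The SD was higher in heterozygotes for 12 of 22 genes (54.5%, beside 58.4% of all tested genes). Heterozygous replicate 3 was the highest of the 8 arrays for 11 of 22 genes, where it was the highest for 13.1% of all tested genes, and on average it lay 0.19 above the genes' means. These 11 genes came from different parts of the pathway: Hmgcs1, Pmvk, Mvd, Fdps, Lss, Tm7sf2, Msmo1, Hsd17b7, Stard4, Npc2 and Scarb1. Heterozygous replicate 4 was the lowest array for 8 of 22 genes, against 15.8% of all tested genes: Pmvk, Fdps, Sqle, Lss, Nsdhl, Ebp, Dhcr7 and Lcat. Without it the log2 fold change was -0.12 for Sqle, -0.01 for Ebp and -0.07 for Lcat. That array was nevertheless the highest for Idi1 and Sc5d, so the synthesis enzymes did not move as a block on it. Over the 15 tested synthesis enzymes the mean deviation was -0.04, -0.08, 0.18 and -0.15 in heterozygous replicates 1 to 4, against 0.01, 0.11, 0.05 and -0.09 in wild-type replicates 1 to 4. The heterozygous values enclose the wild-type ones at both ends. The labels name no feeding state, hour of collection or batch, and the part of these in the spread was not tested.

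**Figure D4:**
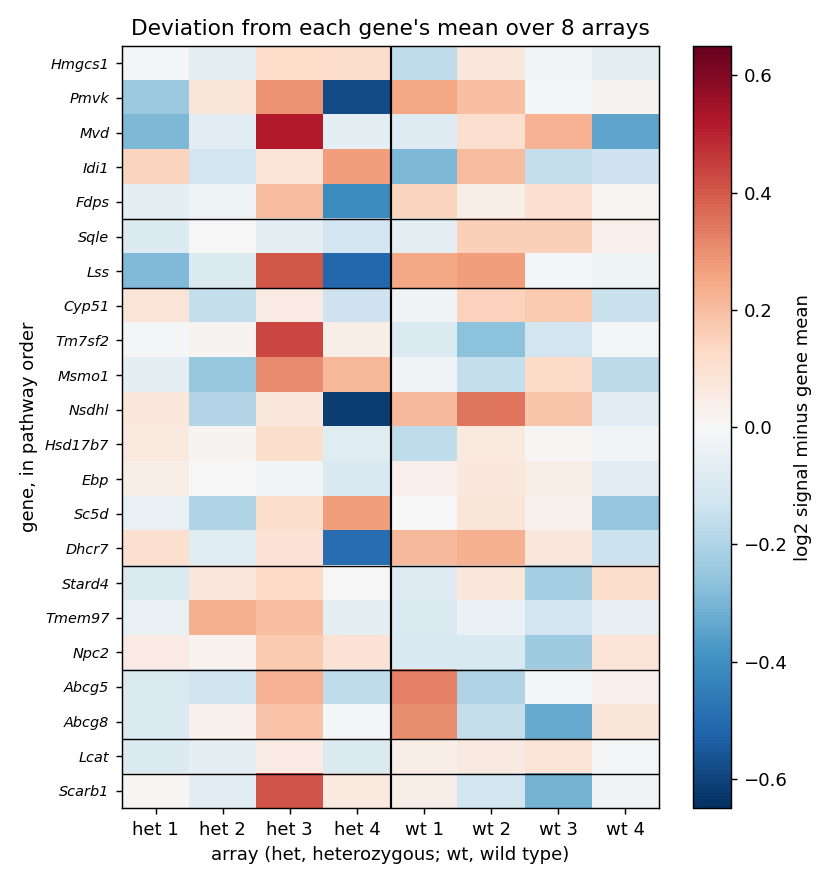
Log2 signal minus the gene's mean over 8 arrays (colour) for the 22 tested cholesterol genes in pathway order (y axis, horizontal lines separate roles) on each array (x axis; the vertical line separates heterozygous from wild-type). Heterozygous replicate 3 is red for most genes, up to 0.51 for Mvd, and heterozygous replicate 4 is blue for Pmvk, Fdps, Lss, Nsdhl and Dhcr7, down to -0.62, but red for Idi1 and Sc5d.

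Neighbouring genes of sterol metabolism likewise gave 0 calls with limma. Among 11 of 15 sterol sensing and regulatory genes that were tested, 2 were above and 9 below 0, with a median of -0.07 and 2 at an unadjusted p under 0.05. Insig1, the endoplasmic reticulum anchor that holds SREBP back, was lowest in p (log2 fold change -0.45, limma adjusted p = 0.309), with every heterozygous array below all wild-type arrays, and Erlin1 was at 0.16. The SREBP2 gene Srebf2 was at -0.03. Of 16 other transport and uptake genes 9 were tested, 3 above and 6 below 0. Pltp, the phospholipid transfer protein of HDL, averaged 8.91 ± 0.82 in heterozygous and 9.99 ± 0.19 in wild-type liver (SD, n = 4 each) without overlap (log2 fold change -1.08, limma adjusted p = 0.309), and the receptor gene Lrp1 was at 0.22. The groups of Stard5, a START-domain sterol carrier, did not overlap either (log2 fold change -0.21, limma adjusted p = 0.356). In 7 of 13 side-branch genes of the mevalonate pathway the median was 0.00078, with the dolichol synthesis gene Nus1 at -0.23 and the farnesyltransferase subunit Fntb at 0.10. The 9 tested of 10 genes that turn cholesterol into bile acids had a median of 0.03. Cyp7b1 was at 0.25 and Scp2, which is also in the transport and uptake list, at -0.11. Cyp7a1 had the largest difference of these, 0.50 (limma adjusted p = 0.67), with SDs of 0.90 in heterozygous and 0.54 in wild-type liver. None of these 4 lists had a gene past the threshold, and at an unadjusted p under 0.05 they held 2 of 11, 2 of 9, 1 of 7 and 0 of 9 tested genes in that order, against 9.8% of all tested genes. Separate groups were found for 1 of 11, 2 of 9, 0 of 7 and 0 of 9, against 5.79%.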

How the data were processed

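The authors measured liver RNA of 4 heterozygous and 4 wild-type mice on Illumina bead arrays. They deposited non-normalized signal intensity and a detection p-value for each probe, per the file headers, from GenomeStudio 2011.1 per the submitters' processing notes. A second deposited table of processed intensity, with column medians of 8.96 to 8.99 and values below 0, served as an alternative; how it was made is not given in the sources used here.

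Signals were background corrected with nec of limma 3.58.1 (R 4.3.3, offset 16), quantile normalized and taken as log2. Probes with a detection p under 0.05 on at least 4 of 8 arrays were tested by lmFit and eBayes, two-sided, and p-values were adjusted over all 11412 tested probes by the Benjamini-Hochberg method. Each gene was represented by its brightest tested probe. The number of arrays limits the precision. Intervals are 95% intervals of that fit, and the steps were tested on simulated data.

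Symbols came from GEO's platform annotation. Mouse numbers differ, so replicates are separate animals. The members and lists were chosen with earlier results of these data known. Values in every array are given for genes with an unadjusted p under 0.05 or separate groups (0 genes), for the brightest gene of each role and, chosen after their values were seen, for Nsdhl, Tm7sf2, Pmvk, Fdps, Idi1, Lss, Dhcr7, Npc2 and Abcg8. Of the other lists the gene with the smallest p per direction was named, and Srebf2, Stard5 and Cyp7a1 after their values were seen. Alternatives changed the background correction, offset, scaling, filter, table, replicate block, array weights, prior, probe choice and threshold, or left out an array.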

Additional observations from a re-analysis of the deposited data

Results flagged for a closer look

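Among 44 sets of 4 values, 1 for each tested cholesterol gene and group, a single set had an outlying array; by chance about 1 in 20 sets would. Tm7sf2 had a log2 signal of 9.82 in heterozygous replicate 3, with the other heterozygous arrays between 9.37 and 9.42. Without that array its log2 fold change was 0.14 (limma adjusted p = 0.538).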

How the results depend on the processing

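The count of cholesterol genes past the threshold stayed at 0 under all 19 alternatives, including the adjusted p under 0.10, and the lowest adjusted p of any gene was 0.300 (Lss without heterozygous replicate 3). At an unadjusted p under 0.05 the count ran from 0 to 4 of the genes. It was 4 of 22 with no background correction (Nsdhl, Sqle, Tm7sf2 and Tmem97), against 10.7% of all tested genes. Without heterozygous replicate 3 it was also 4 of 22 (Fdps, Lss, Nsdhl and Pmvk), against 10.5%. Nsdhl and Tm7sf2 were both under 0.05 with offset 50, with detection p under 0.01 on all 8 arrays, and with the changed prior. In each of these settings the count was 2 of 22, against 10.2%, 10.6% and 10% of all tested genes. The count of genes with separate groups ran from 0 to 3 with an array left out, against 8.03% to 11.4% of all tested genes. It was 0 otherwise, against 4.28% to 6.01%. The median log2 fold change of the genes ran from -0.03 to 0.07 and that of the synthesis enzymes from -0.11 to -0.0025; the median of the genes was below 0 with median scaling (-0.0067), with array weights (-0.01001), and without heterozygous replicate 3, wild-type replicate 3 or wild-type replicate 4. Median scaling also turned the split to 8 above and 14 below 0, as it moved all genes to a median of -0.03; relative to that median the split was 12 and 10, as in the main setting. Of 22 genes 16 kept their sign throughout. With median scaling Mvd (-0.00086), Hsd17b7 (-0.0013), Stard4 (-0.00094) and Abcg8 (-0.012) turned below 0, and with array weights Mvd did (-0.032). With an array left out, Mvd ran from -0.12 to 0.15, Sc5d from -0.0090 to 0.15, Stard4 from -0.0093 to 0.10, Abcg5 from -0.17 to 0.014 and Abcg8 from -0.051 to 0.16. The cause of these changes was not tested. Same-numbered animals of the 2 groups did not deviate together (correlations -0.067, 0.13, 0.095 and 0.077), and in a fit with a replicate block 0 genes passed, with a median of 0.05 for the genes and -0.04 for the synthesis enzymes. Signals near background limit Ggps1 and Abca1, which enter only without the filter.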
